A study of Drosophila melanogaster with 3 samples.

Results

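The regions described here are 557 autosomal binding sites of CG14050 with summits more than 500 and up to 2000 bp away from the closest protein-coding transcription start site (TSS). They were taken from the conservative across-replicate list of a ChIP-seq experiment, which holds 3515 peaks, 2811 of them on the autosomes, and they made up 19.8% of the autosomal peaks (95% exact binomial interval 18.4 to 21.3). The other autosomal peaks were 1346 promoter peaks, whose summits lay at most 500 bp from such a TSS, and 908 distal peaks, more than 2000 bp from one. The study has 1 group of 3 biological replicates: transgenic flies that express CG14050 fused to eGFP, collected as whole embryos 0 to 24 h old, with chromatin sonicated to 200 to 800 bp and precipitated with an antibody against GFP. The group has no second genotype, age or treatment to compare with, the embryos mix all cell types and stages of that day, and the control experiment that the labels name was not analysed here. The replicate peak lists ranked 49504, 48710 and 46992 regions, of which 2155, 2433 and 2282 passed the threshold of the irreproducible discovery rate (IDR). The IDR measures how well the rank of a region is kept between the lists compared. Which lists were compared for a single replicate was not examined, and passing there is not read as agreement between the replicates.

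Protein-coding genes of Drosophila are read from a core promoter at the TSS, and many of the elements that set when and where they are read lie just upstream of it or in the first intron. A first intron is the stretch that is spliced out directly after the first exon, and it often lies between alternative promoters of the same gene. Long noncoding, antisense and small nucleolar RNA genes have starts of their own, which can lie in the same stretch.

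By position, 273 of the 557 members were upstream of their nearest TSS (49.0%, 44.8 to 53.2) and 231 lay in the first intron of a transcript that starts there (41.5%, 37.3 to 45.7). The other 53 members (9.52%, 7.21 to 12.3) were downstream of the TSS but outside that intron, 19 of them in an intron of the nearest gene and 25 beyond its far end. The windows below run 50 bp to each side of the summit on the plus strand of the dm6 genome (RefSeq). Capitals mark 4 short words searched on either strand: the core of the insulator protein CTCF's motif (AGATGGCGC or AGGTGGCGC), the TATA box word TATAAA, the homeodomain word TAATTA and the word ACAGTG.

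The first set shows the strongest upstream members off the arm from which no sequence is printed. They lie at chr3L:14759450-14759550 (Trl), chr2L:16351159-16351259 (chif), chr3R:8811641-8811741 (CG9837) and chr2L:19865582-19865682 (sick).
Trl: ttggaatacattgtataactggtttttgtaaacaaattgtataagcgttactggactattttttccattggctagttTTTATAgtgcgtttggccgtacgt
chif: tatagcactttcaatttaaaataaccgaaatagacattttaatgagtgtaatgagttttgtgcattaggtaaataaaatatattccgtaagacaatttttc
CG9837: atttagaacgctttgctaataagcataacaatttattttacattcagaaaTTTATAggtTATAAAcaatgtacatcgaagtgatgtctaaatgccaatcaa
sick: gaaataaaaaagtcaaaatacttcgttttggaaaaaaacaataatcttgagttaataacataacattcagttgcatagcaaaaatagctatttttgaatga

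The second set shows 3 of the strongest first-intron members, at chr2L:3302161-3302261 (CG9663), chr2L:3655773-3655873 (for) and chr3L:21880444-21880544 (mub).
CG9663: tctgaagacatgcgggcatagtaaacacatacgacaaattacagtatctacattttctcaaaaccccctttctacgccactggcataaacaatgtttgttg
for: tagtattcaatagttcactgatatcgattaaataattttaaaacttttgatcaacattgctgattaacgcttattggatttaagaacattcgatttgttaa
mub: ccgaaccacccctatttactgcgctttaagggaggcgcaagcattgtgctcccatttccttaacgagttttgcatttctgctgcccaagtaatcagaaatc

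The third set shows members that hold the CTCF core, 3 upstream (jp, Sqor and stet) and 1 in a first intron (CG43693), at chr2L:9567462-9567562, chr3L:4239618-4239718, chr3L:1479436-1479536 and chr3L:11048019-11048119.
jp: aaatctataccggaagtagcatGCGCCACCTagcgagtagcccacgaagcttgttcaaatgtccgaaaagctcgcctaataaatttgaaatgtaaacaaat
Sqor: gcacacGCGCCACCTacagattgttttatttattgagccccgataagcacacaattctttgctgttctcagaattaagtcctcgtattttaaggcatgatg
stet: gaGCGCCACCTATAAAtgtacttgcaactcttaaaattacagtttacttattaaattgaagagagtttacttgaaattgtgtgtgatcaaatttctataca
CG43693: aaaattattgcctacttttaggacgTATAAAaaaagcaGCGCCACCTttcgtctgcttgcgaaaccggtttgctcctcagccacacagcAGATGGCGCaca

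No marked word was common to the 7 windows of the first 2 sets. Their GC content ran from 23.8% (sick) to 47.5% (mub), and 5 of them (chif, sick, CG9663, for and mub) hold none of the 4 words. The window at stet has a CTCF core whose last letter is the first of a TATAAA, and the window at CG43693 has 2 CTCF cores, 1 on each strand.

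Upstream members were concentrated at the near edge of the distance range, and first-intron members less so. Of the 273 upstream members, 105 (38.5%) lay 500 to 750 bp from the TSS, against 58 of 231 first-intron members (25.1%), and the difference passed (odds ratio 1.86, 95% Woolf interval 1.27 to 2.74; Fisher's exact test, two-sided, adjusted p = 0.00191 over the 6 tests of this family). Unpassed regions, which are regions that the authors ranked but did not pass, in the same distance range and more than 1000 bp from a passing peak, had 22.7% of their upstream summits in that bin (odds ratio 2.13, 1.65 to 2.74; Fisher's exact test, adjusted p = 3.38e-08). Among upstream windows of 25 to 40% GC the 2 shares were 36.8% and 26.3% (odds ratio 1.64, 1.16 to 2.31; Fisher's exact test, adjusted p = 0.00794). In first introns the bin held 25.1% of members and 19.7% of unpassed regions, with no test. Unpassed regions of the 2 classes thus differed in the same direction as members, with 22.7% upstream and 19.7% in first introns. The median distance was 904 bp for upstream members and 1019 bp for first-intron members. Both comparisons were chosen after the data were seen, and regions of 1 experiment are not replicates, so these p-values and intervals, like those that follow, cover counting error only.

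**Figure D1:**
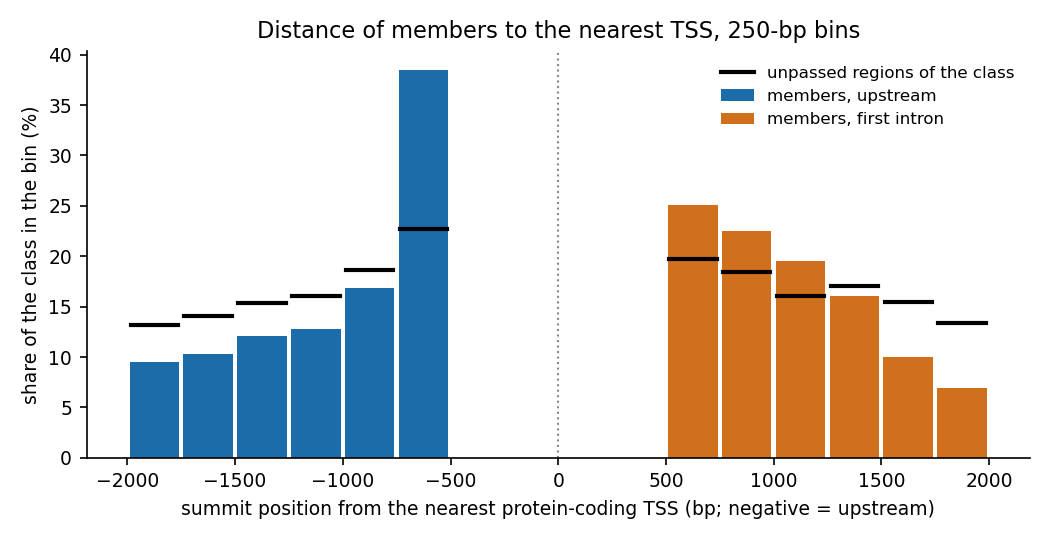
Position of the summit relative to the nearest protein-coding TSS (x axis, bp) against the share of each class per 250-bp bin (y axis, %), with blue bars for upstream members, orange bars for first-intron members and black lines for unpassed regions of the same class. The bar for upstream members at 500 to 750 bp stands at 38.5%, above the 22.7% of unpassed upstream regions.

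The share of ranked regions that passed differed between positions. Over all autosomes 5.23% of the ranked regions were in the conservative list, and within the distance range 557 of 12512 were (4.45%, 4.10 to 4.83), between the 15.9% of promoter regions and the 2.77% of distal ones. In first introns 231 of 2353 ranked regions passed (9.82%, 8.64 to 11.1), upstream 273 of 4847 (5.63%, 5.0 to 6.32) and at other downstream positions 53 of 5312 (0.998%, 0.748 to 1.30). The passing share fell with distance in each 250-bp step, from 5.85% at 500 to 750 bp to 3.29% at 1750 to 2000 bp.

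First introns held a larger share of members than of unpassed regions, and this held when coding exons were set aside. These comparisons were added after the data were seen. Of the 10777 unpassed regions in the range, 36.7% had their summit in a coding exon, against 0.898% of members. Outside coding exons, 231 of 552 members (41.8%) and 1822 of 6826 unpassed regions (26.7%) were in first introns, an odds ratio of 1.98 (1.66 to 2.36; Fisher's exact test, two-sided, adjusted p = 3.50e-13). The mean GC content of the windows was 33.6% in members and 47.1% in unpassed regions. Restricting windows to 25 to 40% GC narrowed this gap but left means of 31.9% in members and 34.4% in unpassed regions. Among such windows outside coding exons the first-intron shares were 41.5% of 323 members and 31.6% of 2345 unpassed regions, and the difference still passed (odds ratio 1.54, 1.21 to 1.95; Fisher's exact test, adjusted p = 8.18e-04).

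For upstream positions the difference depended on which regions were counted. Counting all summits, 49.0% of members and 38.7% of unpassed regions were upstream (odds ratio 1.52, 1.28 to 1.80; Fisher's exact test, two-sided, p = 1.79e-06). Outside coding exons the shares were 49.3% and 49.8% (odds ratio 0.98, 0.825 to 1.17; Fisher's exact test, adjusted p = 0.860). Among windows of 25 to 40% GC the odds ratio was 1.28 over all summits (Fisher's exact test, p = 0.0377) and 1.25 outside coding exons (50.5% against 44.9%, 0.990 to 1.58; Fisher's exact test, adjusted p = 0.0647). With 1 TSS per gene, the most upstream one, the direction also turned (odds ratio 0.925; Fisher's exact test, p = 0.443). The upstream surplus over all summits thus moved with these choices, while the first-intron surplus kept its direction and passed in all 15 alternatives.

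**Figure D2:**
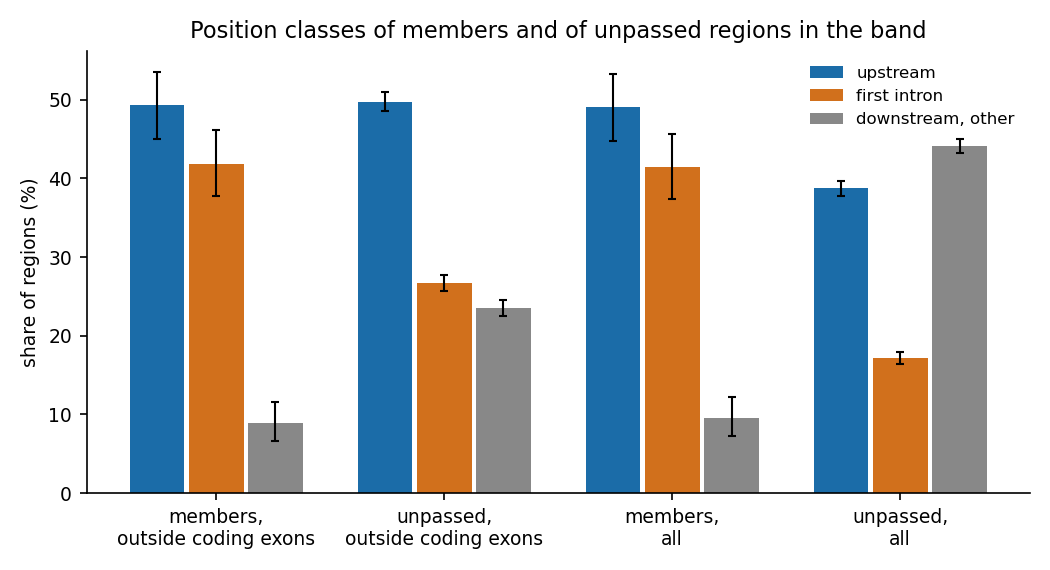
Share of regions (y axis, %) upstream of the nearest TSS (blue), in the first intron (orange) and at other downstream positions (grey) for members and unpassed regions, with and without summits in coding exons; error bars are exact 95% binomial intervals. Outside coding exons the upstream bars stand at 49.3% and 49.8% and the first-intron bars at 41.8% and 26.7%.

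Many upstream members were inside the gene whose TSS they precede, because that gene also has a TSS farther upstream. Of the 273 upstream members, 115 lay inside the same gene (42.1%), 117 between genes (42.9%), 34 inside another protein-coding gene (12.5%) and 7 inside a noncoding gene only. In 80 of the 115 the summit was in the first intron of a longer transcript. Outside coding exons, 41.9% of upstream members and 23.5% of unpassed upstream regions were inside the same gene (odds ratio 2.35, 1.82 to 3.03; Fisher's exact test, adjusted p = 3.97e-10). Summits inside another gene were fewer (12.5% against 21.4%, odds ratio 0.524, 0.363 to 0.758; Fisher's exact test, adjusted p = 4.94e-04). So were those between genes (43.0% against 50.5%, odds ratio 0.740, 0.577 to 0.949, Fisher's exact test, adjusted p = 0.0196). Over all 557 members, those in neither class included, 337 (60.5%) were in the first intron of some protein-coding transcript, and outside coding exons this was 61.1% of members and 39.2% of unpassed regions (odds ratio 2.43, 2.03 to 2.90; Fisher's exact test, adjusted p = 1.73e-22). Within 25 to 40% GC the 2 shares were 62.8% and 44.3% (Fisher's exact test, adjusted p = 2.32e-09). These comparisons were also chosen after the data were seen.

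The first introns that held members were of like length to those that held unpassed regions. An intron has to reach past 500 bp from the TSS to hold a summit of the range. First introns in general were not measured, so whether these are long or short among all first introns was not tested. Their median was 3482 bp, with quartiles of 1753 and 8018 bp, against a median of 3613 bp for those that held unpassed regions. The shortest was 365 bp and the longest 49017 bp. Transposable elements were annotated at the summit of 3 of the 557 members (0.539%) and of 0.455% of unpassed regions. Repeat-masked bases made up 21.6% of the members' windows on average and 10.5% of those of unpassed regions. The shares of repeat-masked bases were not compared outside coding exons or within a range of GC content, in which the 2 groups differ.

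The strongest member of all, and the strongest peak of the conservative list, was in neither class. It lay in the second intron of CG11050, 1018 bp downstream of the TSS (chr2L:6612550-6612876), with a signal of 2040, the enrichment value that the authors' peak lists give each region. The replicate lists gave the overlapping region signals of 667, 636 and 701, ranks 1, 4 and 4 of their ranked regions on the chromosome arms. Over all members the signal in the conservative list ran from 2.30 to 2040 with a median of 132.

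Among upstream members the 10 strongest that overlapped a thresholded peak in all 3 replicates were at HmgZ, Trl, chif, CG9837, sick, CG4496, mlt, sp3, ImpL2 and DNAlig3, with signals from 1408 down to 559. HmgZ encodes an HMG-box protein that binds DNA, Trl the GAGA factor, chif a partner of the kinase that fires replication origins, ImpL2 a secreted protein that binds insulin-like peptides, and DNAlig3 a DNA ligase. The HmgZ site lay 567 bp upstream of the TSS in an intron, inside both HmgZ and its neighbour HmgD (chr2R:21703218-21703609) and had signals of 344, 565 and 494 in replicates 1 to 3. The Trl site lay 1538 bp upstream of a Trl TSS, in the second intron of a longer transcript, with signals of 327, 376 and 332. The chif site, 926 bp upstream of its TSS, had signals of 288, 280 and 320. All 10 were chosen for a thresholded peak in each replicate, so their recurrence is no result. The widest ratio between replicates was at sp3, with 177, 177 and 301. An intron held the summit in 8 of the 10, and only sp3 and DNAlig3 were intergenic; the mlt site lay in KCNQ, a potassium channel gene.

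The 10 strongest first-intron members by the same rule were at Adf1, CG9663, for, mub, CG31635, Csk, CG9135, CG42327, wde and edl, with signals from 1070 to 491. Adf1 is a Myb-related transcription factor, for the cGMP-dependent protein kinase foraging, mub an RNA-binding protein, Csk a kinase that restrains Src, wde a partner of the histone methyltransferase eggless, and edl an inhibitor of Ets factors. The Adf1 site, 796 bp into the gene (chr2R:6662936-6663194), had signals of 297, 449 and 406. The CG9663 site, 919 bp from the TSS, had 202, 248 and 219, with a second member of signal 487 next to it. The for site, 1130 bp from the TSS, had 224, 221 and 212. Replicates 1 and 3 were higher than replicate 2 at CG9135 (204, 121 and 189) and edl (182, 126 and 182), whereas replicate 2 was the highest at Csk, CG42327 and wde.

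**Figure D3:**
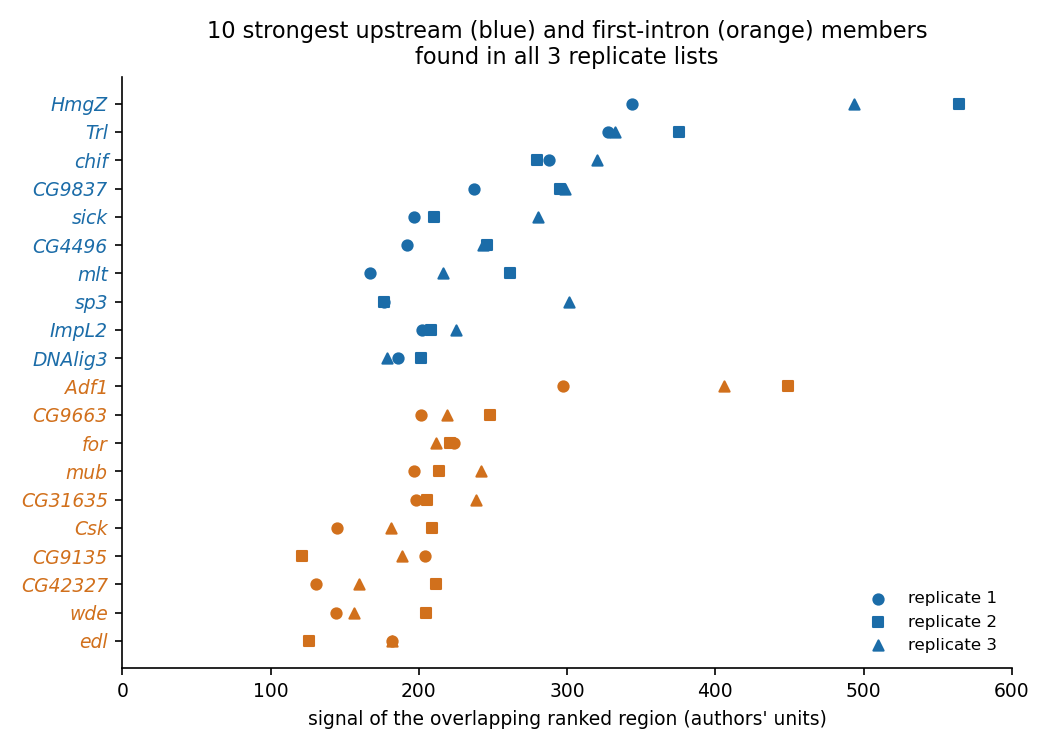
Signal of the overlapping ranked region in each replicate (x axis, authors' units) for the 10 strongest upstream (blue) and 10 strongest first-intron members (orange) found in all 3 replicate lists; circles, squares and triangles are replicates 1, 2 and 3. HmgZ and Adf1 reach 565 and 449 in replicate 2, and the other first-intron members stay at or below 248.

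The classes were of like signal. The median signal in the conservative list was 132 for upstream and 137 for first-intron members, a ratio of 0.962, beside 143 for promoter peaks and 122 for distal peaks. When the classes were rebuilt from each replicate's own thresholded list, the ratio of upstream to first-intron medians was 1.12, 1.05 and 1.03 (1.07 ± 0.0472, SD, n = 3), on the other side of 1. No order of the classes is therefore read from the signal.

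Noncoding TSSs were found near 24 of the 557 members (4.31%, 2.78 to 6.34) when a distance of up to 500 bp from the summit was counted, and they were more frequent upstream than in first introns. Of upstream members 19 of 273 had one (6.96%, 4.24 to 10.7), against 3 of 231 first-intron members (1.30%, 0.269 to 3.75), an odds ratio of 5.69 (1.66 to 19.5; Fisher's exact test, two-sided, adjusted p = 0.00522 over the 3 features compared between the classes). The same rule gave 7.23%, 7.56% and 7.32% of upstream members in the replicates' own lists and 1.39%, 1.16% and 1.27% of first-intron members. The replicate lists hold many of the same regions and are no independent sets of sites, and the first-intron shares rest on few sites. Over all 2811 autosomal peaks the share was 4.55%. Unpassed regions were not split by class for this feature. Whether the difference is particular to members, or holds for any region at such positions, was not tested. The call held when members had to overlap a thresholded peak in both of 2 replicates, with 11 of 133 upstream and 0 of 128 first-intron members without replicate 1, 9 of 118 and 0 of 107 without replicate 2, and 9 of 120 and 0 of 112 without replicate 3 (Fisher's exact test, adjusted p from 0.00240 to 0.0109); 0 of 128 allows a share of up to 2.34%. The call was lost at a distance of 200 bp (8 of 273 against 3 of 231, odds ratio 2.29; Fisher's exact test, adjusted p = 0.438) and for members 500 to 1000 bp from the coding TSS (5 of 151 against 2 of 110, odds ratio 1.85; Fisher's exact test, adjusted p = 0.702).

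Long noncoding RNA genes (lncRNA) were the kind found most often, near 18 of the 24 members, followed by antisense RNA genes (asRNA) near 4; a member can be near several. The strongest such member was 539 bp upstream of Boot (signal 382; 112, 100 and 161 in the replicates), 76 bp from the nearest of the starts of Uhg4, a small nucleolar RNA host gene, and 2 snoRNAs. The annotated end of a snoRNA is cut from its host transcript and need not be a start of transcription. The next was upstream of CG18128, 190 bp from lncRNA:CR45325 (signal 348; 101.3, 112 and 131 in the replicates). A site inside kis, a gene for a chromatin remodelling protein, lay 45 bp from the start of lncRNA:CR44222 (signal 301; 84.8, 92.5 and 123). Further sites were near asRNA:CR45999 upstream of CG34112 (292), lncRNA:CR44409 upstream of Dif, an NF-kappaB factor of the immune response (248), and lncRNA:CR44749 in HmgD, upstream of HmgZ (210).

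All 6 of those members were upstream, as were 19 of the 24, and had a thresholded peak in every replicate. They were chosen for high signal. Of the 277 members at or above the median signal of autosomal peaks, 208 recurred in this way, beside 39.9% of all members. The 3 first-intron members were at sau (asRNA:CR44114, 94 bp), gus (lncRNA:CR43256, 99 bp) and Prps (asRNA:CR45804, 6 bp), with signals of 148, 87.3 and 82.3. Other upstream members in the list were at Adh, the alcohol dehydrogenase gene, with lncRNA:CR43411 at 451 bp, and at the Notch target E(spl)m3-HLH, where 2 members lay 244 and 421 bp from lncRNA:CR43644.

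As a whole, members passed no comparison of this feature with other regions, although some alternatives did. Promoter peaks had a noncoding TSS within 500 bp in 3.86% of 1346 (odds ratio 1.12, 0.684 to 1.84; Fisher's exact test, adjusted p = 0.700) and distal peaks in 5.73% of 908 (odds ratio 0.741, 0.452 to 1.22; Fisher's exact test, adjusted p = 0.550). Without replicate 3 the odds ratio against distal peaks was 0.421 and passed (Fisher's exact test, adjusted p = 0.0419), and without replicates 1 and 2 in turn it was 0.496 and 0.480. Unpassed regions of the range had one in 2.86%, and the odds ratio of 1.53 (1.00 to 2.34) missed the threshold (Fisher's exact test, p = 0.0529). It passed with 1 TSS per gene (1.71), with a distance of 1000 bp (1.73) and for members 1000 to 2000 bp from the coding TSS (2.28), and was 0.969 among windows of 25 to 40% GC (Fisher's exact test, p = 1).

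**Figure D4:**
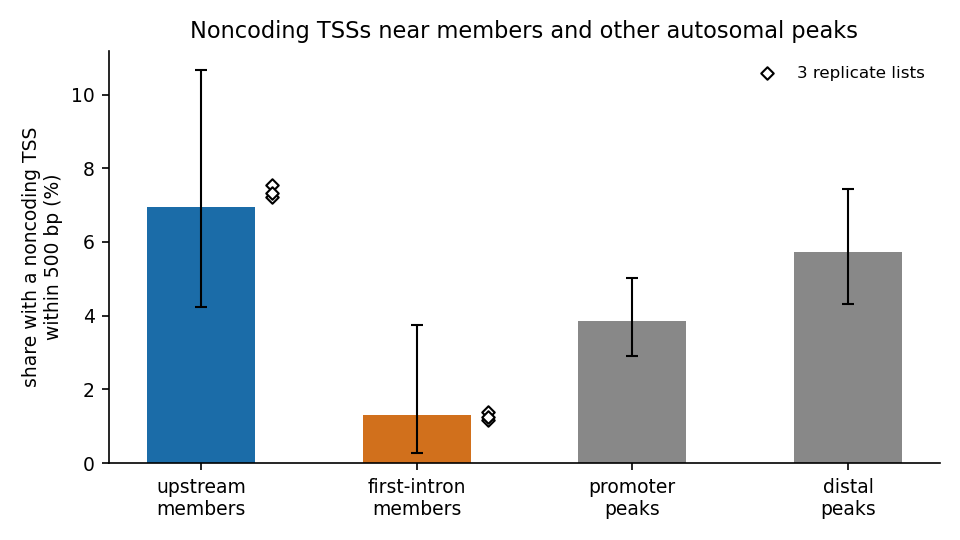
Share of peaks with a noncoding TSS within 500 bp of the summit (y axis, %) for upstream members, first-intron members, promoter peaks and distal peaks of the conservative list, with exact 95% binomial intervals; diamonds are the same share in each of the 3 replicate lists. The upstream bar stands at 6.96% and the first-intron bar at 1.30%, with every diamond near its bar.

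A peak at the promoter of the same gene was not called more frequent in either class. A conservative summit lay within 500 bp of the same TSS for 53 of 273 upstream members (19.4%) and 45 of 231 first-intron members (19.5%), an odds ratio of 0.996 (0.640 to 1.55; Fisher's exact test, adjusted p = 1). Such pairs included chif and mlt upstream and CG9663, CG31635, CG42327 and edl in first introns. The direction turned in 8 of 16 alternatives, and no call was made under any. Without replicate 1 the odds ratio was 1.88 (20 of 133 against 11 of 128; Fisher's exact test, adjusted p = 0.191). The nearest other summit was a median of 3113 bp away, and within 1000 bp for 158 members (28.4%).

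The members belonged to 457 genes, 3.89% of the 11749 autosomal protein-coding genes, and 80 of these genes had more than 1. Shrm, the gene of the actin-binding protein Shroom, had 5 members, 3 of them in first introns and 2 upstream, with signals of 211, 109, 2.73, 141 and 153 along the chromosome. The zinc-finger gene shn, whose product acts with the Dpp pathway, and the chaperone gene Tpr2 had 4 each, split evenly between the classes. Another 13 genes had 3, among them HmgZ, Diap1 (an inhibitor of cell death), chinmo and aop. The arms held like shares, from 18.6% of the peaks on 2L (121 of 649) to 22.3% on 3R (172 of 773), with 1 member among 9 peaks on chromosome 4.

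Members recurred between replicates at the rate of all autosomal peaks. Thresholded peaks of all 3 replicates overlapped, by at least 1 bp, 222 of the 557 members (39.9%, 35.8 to 44.1), and 39.9% is also the share over all 2811 autosomal peaks. The count was 107 of 273 upstream members (39.2%) and 100 of 231 first-intron members (43.3%), a difference that did not pass (odds ratio 0.844, 0.591 to 1.21; Fisher's exact test, adjusted p = 0.547). The share was higher in promoter peaks (45.1%, odds ratio 0.807 for members, 0.660 to 0.986; Fisher's exact test, adjusted p = 0.0373) and lower in distal peaks (32.3%, odds ratio 1.39, 1.12 to 1.73; Fisher's exact test, adjusted p = 0.00677), in comparisons added after the data were seen. Both calls were lost when replicate 2 was not required (adjusted p = 0.0775 and 0.0799, Fisher's exact test). The call against promoter peaks was lost in 7 of 13 alternatives, among them 1 TSS per gene (odds ratio 0.952; Fisher's exact test, p = 0.661), and the call against distal peaks in 4 of 13.

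The replicates were not evenly represented among the entries compared in the conservative list. Ranked regions of that list carry a pair of replicate entries. Of these, 63.4% and 66.3% were identical to entries of replicates 2 and 3, while 0 were identical to one of replicate 1. Which replicates entered the signals of the list was not tested. The overlap with members was 296 (53.1%) in replicate 1, 365 (65.5%) in replicate 2 and 345 (61.9%) in replicate 3, and 103 members overlapped no replicate's thresholded list. In first introns 73.6% of members overlapped replicate 2 and 55.8% replicate 1. By the same distance rule the replicates' own lists gave 344, 383 and 353 members (360 ± 20.4, SD, n = 3), or 19.6% ± 0.281 of their autosomal peaks. Upstream members made up 46.5% ± 1.68 of these and first-intron members 43.8% ± 1.72.

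Sequence words near the summit did not separate upstream from first-intron members. Of 16 motifs searched on either strand within 50 bp of the summit, 0 passed between the classes in Fisher's exact test with Benjamini-Hochberg adjustment, and 0 had an unadjusted p under 0.05. TATAAA was in 22.3% of upstream and 24.2% of first-intron windows, TAATTA in 10.6% and 10.8%, and GAGAG, the word bound by the Trl product, in 9.52% and 10.8%. The CTCF core was in 7 of 273 and 1 of 231 (odds ratio 6.05, 0.739 to 49.6; Fisher's exact test, adjusted p = 0.945).

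Against promoter peaks, members held 2 words known from housekeeping promoters less often. The DNA replication element TATCGATA was in 0 of 557 members, which allows a share of up to 0.539%, and in 38 of 1346 promoter peaks (2.82%; Fisher's exact test, adjusted p = 6.96e-05). The shorter CGATA, bound by BEAF-32 and contained in TATCGATA, was in 11.0% of members and 18.1% of promoter peaks (odds ratio 0.555; Fisher's exact test, adjusted p = 0.00137). In the replicates' own lists TATCGATA was in 0%, 0.261% and 0% of members and in 2.52%, 2.41% and 2.88% of promoter peaks. Among peaks at or above the median signal 0 of the 32 tests against promoter and distal peaks passed, and 0 or 1 did among peaks that recurred in 2 replicates; the cause was not tested. Against distal peaks 0 of 16 motifs passed, with 0 at an unadjusted p under 0.05 (Fisher's exact test).

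Differences from unpassed regions were called over all windows and not within a narrower range of GC content. Over all windows 8 of 16 motifs passed (Fisher's exact test, Benjamini-Hochberg adjustment), 6 higher and 2 lower in members. TATAAA was in 21.7% of members and 7.57% of unpassed regions (odds ratio 3.39), the CTCF core in 1.80% and 0.315% (odds ratio 5.78), and GCCAT, the core of the Pho motif, was lower (odds ratio 0.582). Among windows of 25 to 40% GC, 324 of members and 2457 of unpassed regions, 0 of 16 passed, with fewer regions in the test. There TATAAA was in 23.5% and 18.4% (odds ratio 1.36; Fisher's exact test, unadjusted p = 0.0346, adjusted p = 0.277), and the CTCF core in 0.926% and 0.0814% (odds ratio 11.5; unadjusted p = 0.0131, adjusted p = 0.209).

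**Figure D5:**
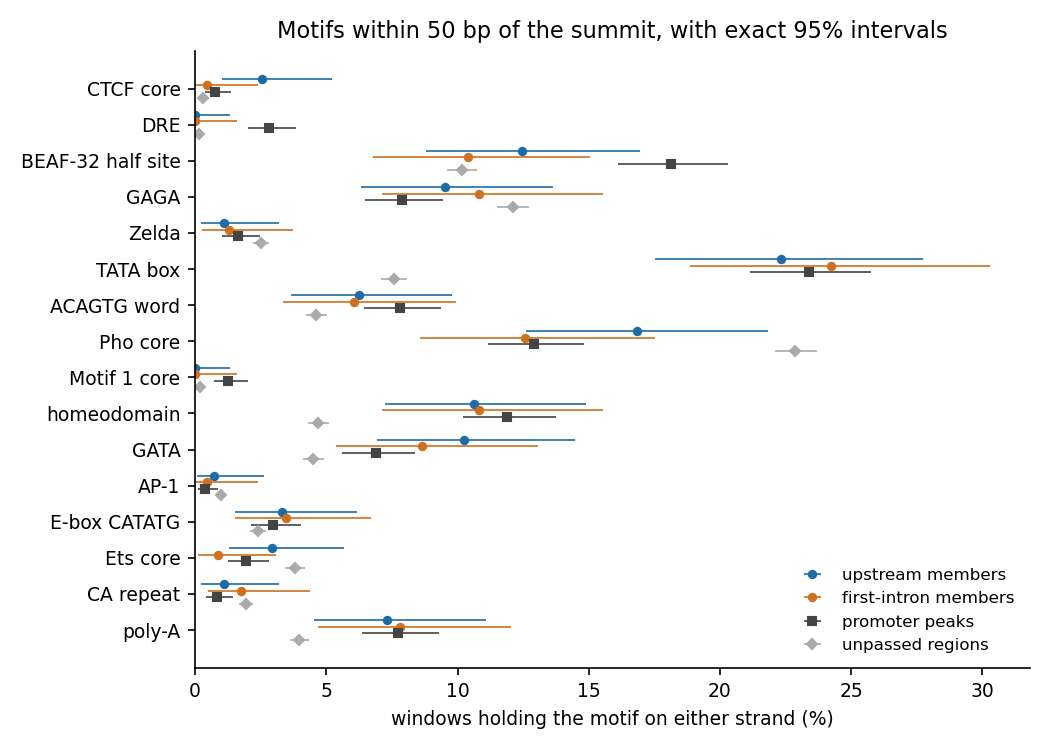
Share of windows of 50 bp to each side of the summit that hold each of 16 motifs on either strand (x axis, %) in upstream members, first-intron members, promoter peaks and unpassed regions; bars are exact 95% binomial intervals. Upstream and first-intron intervals overlap for every motif, and promoter peaks stand at 2.82% for DRE, the DNA replication element, where members are at 0.

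The 10 members with a CTCF core were 7 upstream, 1 in a first intron (CG43693) and 2 at other downstream positions (Mef2 and CG31909). The strongest, 762 bp upstream of jp, which encodes junctophilin, had a signal of 498 (172, 154 and 164 in the replicates), followed by Boot (382), CG14762 (375) and Sqor (206; 68.9, 71.8 and 79.2 in the replicates). At jp, Sqor and stet the core began 28, 44 and 48 bp before the summit on the plus strand. The Boot member and the member at L were also near a noncoding TSS.

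Genes of signalling pathways and of developmental transcription factors held members in larger shares than all genes did. A member was nearest to 15 of 81 signalling genes (18.5%), 17 of 147 developmental transcription factor genes (11.6%) and 6 of 63 genes of Polycomb, trithorax, insulator and remodelling proteins (9.52%), beside 3.89% of all autosomal protein-coding genes. For axon guidance genes the share was 3 of 91 (3.30%), for cytosolic ribosomal protein genes 2 of 78 (2.56%) and for mitochondrial ribosomal protein genes 0 of 62. Promoter peaks showed another order, with 42 of 78 cytosolic ribosomal protein genes (53.8%) and 12.3% of signalling genes, beside 10.4% of all genes. They too had larger shares than all genes in the chromatin list (20.6%) and the developmental transcription factor list (14.3%). The shares were 12.9% for mitochondrial ribosomal protein genes and 9.89% for axon guidance genes. These shares are descriptions with no test, and the lists differ in gene length and in the number of TSSs per gene.

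Within the signalling list the strongest members were at shn (signal 416; 111, 122 and 174 in the replicates), Mad (346; 109, 108 and 133), ths (269; 79.6, 105 and 81.1) and InR (254; 84.8, 75.8 and 95.3). Mad carries the Dpp signal to the nucleus, ths is a fibroblast growth factor and InR the insulin receptor. The shn and ths sites were in first introns and the Mad and InR sites upstream of a TSS inside the gene. Among transcription factor genes the strongest were at zfh1 (335), chinmo (297), ush (254) and aop (243), all upstream, and ush encodes a partner of GATA factors and aop an Ets repressor. For the chromatin list the strongest after HmgZ and Trl was the kis site described with the noncoding TSSs. The 3 axon guidance members were at unc-5 (218), dpr20 (207) and Sema5c (68.5). The 2 ribosomal protein members were downstream of RpS23 (126) and in RpL3 (60.9), and neither was in all 3 replicates.

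The members nearest the edges of the distance range are given with the peaks just outside, with no test. Just inside were sites upstream of ush and GATAe at the near edge, with signals of 104 and 99.8, and sites 1995 bp into msn and 1997 bp into fru, with signals of 113 and 202. Just outside were peaks 494 bp from CG10479 and CG33725 (signals 368 and 163), and peaks just over 2000 bp from insc and 2006 bp from CG12290 (signals 79.7 and 132).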

How the data were processed

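Peak lists of the 3 replicates and of their comparisons were used as deposited. The authors' files are narrowPeak tables on dm6, per the labels; each region has a signal, and the deposited ranked lists also give its IDR as −log10. No source used here names the aligner or the peak caller. Summits were placed on Ensembl BDGP6.54 (release 115), whose arm lengths no region exceeded, and on RefSeq's dm6 sequence. A member was the conservative-list summit 501 to 2000 bp from the nearest protein-coding TSS. Unpassed regions came from the matching ranked list. Shares were compared by Fisher's exact test (scipy 1.17.1), two-sided, with Benjamini-Hochberg adjustment within each family and a threshold of 0.05; odds ratios have Woolf intervals, with 0.5 added where a cell was 0. Members, gene lists and motifs were chosen with earlier results of these data known. Named sites were the 10 strongest per class in all 3 replicates, the 6 strongest near a noncoding TSS, up to 4 per gene list and those at the edges; CG11050 and the remaining CTCF and noncoding sites were named after their values were seen. The scripts were tested on simulated data. Intervals cover counting error only. The sequence of 1 window among the strongest is not reported here.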

Additional observations from a re-analysis of the deposited data

How the results depend on the processing

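No paired analysis was possible because the study has 1 group. Of 214 values under alternative settings, 156 were labelled the same. These kept their direction and side of the threshold, stayed within the spread of the replicates, or, for counts of motifs, gave an equal or similar count. All 15 alternatives of the first-intron share against unpassed regions, and all 15 of the motifs between the classes, were among them. For every other result the cause of a change was not tested. The alternatives by GC content, by coding exons, by kind of noncoding gene and by gene were chosen after seeing the data.

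Without 1 replicate, here and above, means that peaks of the conservative list had to overlap thresholded peaks of all other replicates. For recurrence, such overlaps were counted. The list itself was not called again. Its matched entries are those of replicates 2 and 3, so leaving out either of them did not remove it from the calls. Which replicates entered the signals of the list was not tested, so no replicate is taken as removed from the signals. The share of members among autosomal peaks was 19.8% as reported. It was 20.5% and 20.4% in the authors' lists of replicates 1 and 2 and of replicates 1 and 3. With 1 TSS per gene it was 17.3%, and without 1 replicate it was 19.4% to 19.9%. The ratio of median signals, 0.962 as reported, was 1.07 in the list of replicates 1 and 2, 0.866 with 1 TSS per gene, 0.864 at 500 to 1000 bp, 0.894 with the strongest member per gene and 1.01 to 1.02 without 1 replicate.

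Noncoding TSSs upstream against first intron gave odds ratios of 2.29 at 200 bp and 1.85 at 500 to 1000 bp, both no longer past the threshold. Against promoter peaks the odds ratio turned to 0.985, 0.896, 0.991 and 0.748 in the lists of replicates 1 and 3 and of no matched pair, at an IDR of at most 0.001 and at 500 to 1000 bp, and was 0.996 to 1.04 without 1 replicate. Against distal peaks it was 1.08 with 1 TSS per gene, 1.10 at 1000 bp and 0.421 to 0.496 without 1 replicate, the lowest of which passed without replicate 3 (adjusted p = 0.0419, Fisher's exact test). Against unpassed regions it was 1.71, 1.73 and 2.28 with 1 TSS per gene, at 1000 bp and at 1000 to 2000 bp, all past the threshold, and 0.881 and 0.969 at 500 to 1000 bp and within 25 to 40% GC.

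The upstream share against unpassed regions gave 0.925 with 1 TSS per gene, 1.26 at 1000 to 2000 bp and 0.981 outside coding exons. A promoter peak at the same gene gave odds ratios on the other side of 1 in the lists of replicates 1 and 2 and of no matched pair (1.08 and 1.10), at an IDR of at most 0.001 (1.08), with 1 TSS per gene (1.03), at 500 to 1000 bp (1.38) and without 1 replicate (1.41 to 1.88). Recurrence of upstream against first-intron members was 1.02 in the list of replicates 1 and 2.

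Recurrence against promoter peaks lost its call at an IDR of at most 0.001 (0.863), at or above the median signal (0.846), with 1 TSS per gene (0.952), with an overlap of 50% (0.835), at 500 to 1000 bp (0.842) and at 1000 to 2000 bp (0.774). Against distal peaks it did so at the stricter IDR (1.31), at or above the median signal (1.29) and at 1000 to 2000 bp (1.33). Without 1 replicate the odds ratios were 0.797 to 0.816 and 1.21 to 1.44. The count of motifs that differed from other peaks, 2 as reported, was 1, 4, 1, 0 and 1 in the lists of replicates 1 and 2 and of replicates 1 and 3, at the stricter IDR, at or above the median signal and at 500 to 1000 bp, and 0 to 1 without 1 replicate. The count against unpassed regions, 8 as reported, was 5 at 1000 to 2000 bp and 0 within 25 to 40% GC. Depth is not given by the files beyond the number of regions, and a share of 0 in 557 members allows up to 0.539%.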

Other observations

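Members of very low signal often had a close neighbour. Of the 557 members 26 had a signal under 20, as had 141 of the 2811 autosomal peaks, and 25 of the 26 had another summit of the list within 300 bp, against 86 of all 557. Their median distance to that summit was 204.5 bp, and 9 of the 26 overlapped no replicate's thresholded list. Bicra had first-intron members of signal 88.7, 6.14 and 80.6, and RhoGAP92B had 188, 12.2 and 281 along the chromosome. The replicates' ranked regions that overlap the 26 had median signals of 29.7, 36.3 and 38.6, and whether these belong to the neighbour was not tested.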
